A study of Mus musculus with 10 samples.

Results

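The genes described here are 41 genes that mark T cells and natural killer cells, measured in whole lung of ICR mouse pups raised in room air or in 80% oxygen. They are a list of names covering chains and signalling proteins of the T cell antigen receptor, coreceptors and costimulatory receptors, cytokine receptors, lineage transcription factors, natural killer receptors, and the granule proteins and chemokines of cytotoxic cells. Of the 41, 39 had a probe set annotated to that gene alone, and Lck and Tcf7 were not analysed here. Each gene was read from its brightest probe set, and 34 members reached a log2 value of 5 on at least 2 of the 10 arrays, among 14988 genes that did so of 18193 with a probe set of their own. The series holds total RNA of lung on 10 Affymetrix arrays of 45101 probe sets. Pups were pooled no later than 12 hours from birth and divided at random between room air and hyperoxia for 14 or 29 days. There were 2 room-air lungs (labelled wild type, ICR, normal) and 3 hyperoxia lungs (ICR, labelled as the bronchopulmonary dysplasia model) on postnatal day 14 (P14), and the same numbers on postnatal day 29 (P29). Nursing dams were moved between the exposures every 24 hours. The labels name no genetic change in any group, and the exposure lasted 14 or 29 days, so no group had a period of recovery. Whether every array came from its own pup is left unsaid in the labels, so p-values here measure the spread between these arrays, which may be technical.

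T cells recognise antigen through a receptor whose signal is carried by the CD3 chains (Cd3d, Cd3e and Cd3g) and the zeta chain (Cd247), and then by the kinases and adaptors that bind them. Natural killer cells have no rearranged antigen receptor and weigh activating against inhibitory receptors instead, and both cell types kill with perforin and granzymes released from granules. Lymphocytes are a minority of lung cells and accumulate in the lung during the first weeks after birth. In whole-lung RNA, fewer cells of a type and less RNA per cell cannot be told apart.

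The promoters of 6 members are shown because they belong to genes that behaved alike (the CD3 chains, Cd3d, Cd3g and Cd3e) or unlike (Cd247 beside them, and Gzma beside Gzmb) in the values that follow. Each is the 250 bases before the start of the gene, 5′ to 3′ on the strand of the gene, from RefSeq for mouse build GRCm38.p6, with matches to any of 5 motifs in capitals. Cd3d lies at chr9:44981536-44981785 on the plus strand, Cd3g at chr9:44980432-44980681 on the minus strand and Cd3e at chr9:45009612-45009861 on the minus strand. Cd247 lies at chr1:165788431-165788680 on the plus strand, Gzma at chr13:113100982-113101231 on the minus strand and Gzmb at chr14:56262335-56262584 on the minus strand.
Cd3d: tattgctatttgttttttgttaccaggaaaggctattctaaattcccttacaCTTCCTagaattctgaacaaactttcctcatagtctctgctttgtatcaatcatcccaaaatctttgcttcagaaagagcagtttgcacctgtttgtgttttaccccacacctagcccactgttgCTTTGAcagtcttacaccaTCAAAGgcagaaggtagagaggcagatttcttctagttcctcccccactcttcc
Cd3g: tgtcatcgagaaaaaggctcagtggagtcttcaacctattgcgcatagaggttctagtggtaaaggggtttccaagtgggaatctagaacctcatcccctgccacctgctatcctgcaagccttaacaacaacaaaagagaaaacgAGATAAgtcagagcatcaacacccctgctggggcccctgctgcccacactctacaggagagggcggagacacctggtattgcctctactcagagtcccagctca
Cd3e: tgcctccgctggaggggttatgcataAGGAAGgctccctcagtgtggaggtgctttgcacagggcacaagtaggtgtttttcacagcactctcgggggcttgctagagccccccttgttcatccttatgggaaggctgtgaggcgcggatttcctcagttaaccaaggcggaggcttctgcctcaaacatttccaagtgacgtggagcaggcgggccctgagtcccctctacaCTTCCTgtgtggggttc
Cd247: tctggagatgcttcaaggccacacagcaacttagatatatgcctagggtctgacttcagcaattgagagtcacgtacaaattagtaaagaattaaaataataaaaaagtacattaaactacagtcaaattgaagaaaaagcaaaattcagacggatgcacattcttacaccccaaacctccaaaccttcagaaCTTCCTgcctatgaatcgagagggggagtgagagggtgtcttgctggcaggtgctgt
Gzma: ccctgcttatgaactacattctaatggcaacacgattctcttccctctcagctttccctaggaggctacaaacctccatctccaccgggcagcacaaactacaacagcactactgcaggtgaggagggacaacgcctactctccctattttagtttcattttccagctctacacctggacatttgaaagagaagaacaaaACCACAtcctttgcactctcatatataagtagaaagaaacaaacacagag
Gzmb: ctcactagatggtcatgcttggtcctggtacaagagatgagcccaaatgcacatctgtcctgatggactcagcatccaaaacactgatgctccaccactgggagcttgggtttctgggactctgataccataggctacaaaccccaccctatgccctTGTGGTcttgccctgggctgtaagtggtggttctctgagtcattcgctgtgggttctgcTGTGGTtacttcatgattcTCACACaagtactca
Cd3d and Cd3g are transcribed away from each other, with starts 1355 bases apart, and the start of Cd3e is 27825 bases from that of Cd3d. The motifs were searched on both strands of the 250 bases before the start. Of the 34 members, 22 had a promoter in the table. The ETS motif AGGAAG occurred in 12 of these 22 (54.5%), against 32.3% of 27025 genes, and the Runx motif TGTGGT in 9 (40.9%), against 15.9%. The T-box motif TCACAC was found in 6 (27.3%, against 13.9%), the TCF/LEF motif CTTTGA in 3 (13.6%, against 15.8%) and the GATA motif AGATAA in 2 (9.09%, against 11.4%). Among the printed sequences, an ETS match stands before Cd3d, Cd3e and Cd247, whose values differed in behaviour, and a Runx match before Gzma and Gzmb. These matches are letters in a window, and they share no test with the expression values.

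Across the arrays, values of all genes correlated at 0.993 to 0.996 within a group and at 0.935 to 0.983 between groups. Probe sets for the 3′ end of beta-actin exceeded those for its 5′ end by 1.33 to 2.21 log2 units on the 6 hyperoxia arrays and by 0.32 to 0.74 on the 4 room-air arrays, so this measure of RNA or labelling quality moved with exposure and did not overlap. The same difference for Gapdh was 0.48 to 1.11 under hyperoxia and -0.14 to 0.12 in room air. Sex-linked genes read as male on the 5 P14 arrays and as female on both P29 room-air arrays. Of the P29 hyperoxia arrays, replicate 1 read as male, replicate 2 as female, and replicate 3 carried both signals (Xist at 11.94 with a Y-linked mean of 7.71). Age and sex therefore cannot be told apart in room air. The lung identity of the tissue was plain, with the 8 epithelial markers summing to between 16.34 and 16.72 on the log2 scale on every array.

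At P29, the T and natural killer genes were lower in hyperoxia, with lower members in each of the 6 roles. Of 34 members, 28 were lower, 0 were higher and 6 did not pass the test (limma, Benjamini-Hochberg adjusted p under 0.05 over 14988 genes), where 25.6% of all genes were lower and 34.2% higher. The median member difference was -0.93 log2 units, against 0.04 over all genes. In the same 28 genes, every hyperoxia array lay below every room-air array, an arrangement found in 33.1% of all genes. A fall of 2-fold or more was seen in 16 members and in 2.38% of all genes. The members cover mean log2 values from 4.66 to 8.76, and among the 9285 genes in that range 29.6% were lower at P29. When each array was scaled to its 75th percentile instead, the median of all genes moved to -0.10, 36.8% of genes were lower and 25.4% higher, and 30 of 33 members were lower with a median of -1.10, which is -1.0 relative to all genes. With the filter on dim genes removed, 31 of 39 members were lower, 0 were higher, and the median was -0.75. Of the 34, 4 (Txk, Cd28, Skap1 and Cd8b1) would have been dropped without the P29 room-air arrays. The filter itself thus required a high P29 room-air value of them. Their P29 tests, room-air age tests and tests of the difference of effects are not independent of it. Xcl1 likewise needed both a P14 room-air and a P29 hyperoxia array.

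**Figure D1:**
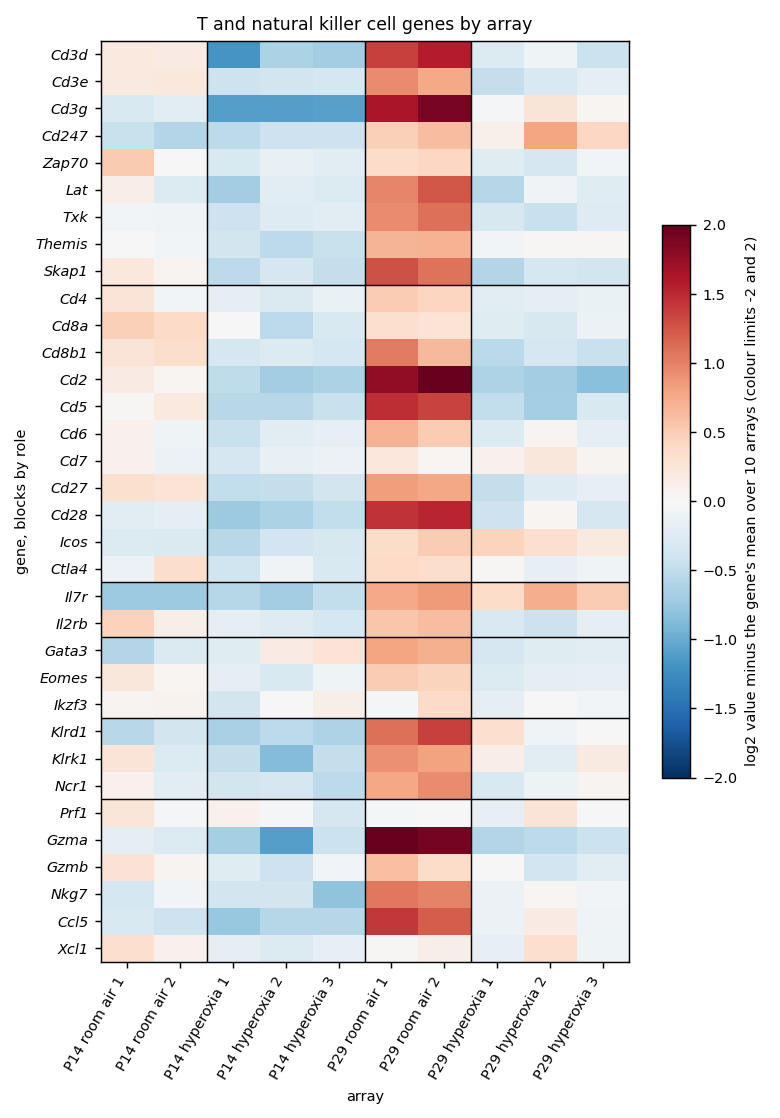
Log2 value of each of the 34 members on each of the 10 arrays, minus that gene's mean over the arrays (rows: genes in blocks by role; columns: arrays by group; red above and blue below the gene's mean). The P29 room-air columns are the reddest, with member medians of 0.78 and 0.73, and the P14 hyperoxia columns the bluest, with medians of -0.42 to -0.35.

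The plot of centred values by array shows the pattern that the single genes follow. At P14 the median over the 34 members stood at 0.09 and -0.05 in room air and at -0.42, -0.36 and -0.35 in hyperoxia. At P29 it was 0.78 and 0.73 in room air and -0.25, -0.13 and -0.13 in hyperoxia. The P29 room-air lungs were thus the highest group, and the P29 hyperoxia lungs lay below the P14 room-air lungs.

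Among the CD3 chains and the proteins of antigen receptor signalling, 8 of 9 measured genes were lower at P29, with a median difference of -1.36. Cd3g, the gamma chain of CD3, read 7.55 and 7.81 on the P29 room-air arrays and 5.88, 6.16 and 5.95 on the P29 hyperoxia arrays. At P14 it read 5.61 and 5.70 in room air and 4.81, 4.81 and 4.82 in hyperoxia. The groups did not overlap at either age, and the P29 difference was -1.68 ± 0.10 (log2 ± SE), a 3.21-fold lower value (adjusted p = 5.02e-07). Cd3e, the epsilon chain, had P29 values of 8.25 and 8.05 in room air and of 6.81, 6.99 and 7.12 in hyperoxia, which is 2.26-fold lower (-1.18 ± 0.10, adjusted p = 3.69e-06). Its 3 P29 hyperoxia values all lay under its P14 room-air values of 7.47 and 7.50. Cd3d, the delta chain, was 3.33-fold lower at P29 (-1.74 ± 0.15), with 8.34 and 8.54 in room air against 6.70, 6.88 and 6.54 in hyperoxia.

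Downstream of the receptor, Skap1, an adaptor that links the receptor to integrin adhesion, read 6.14 and 5.95 in P29 room air and 4.27, 4.51 and 4.51 in P29 hyperoxia. The hyperoxia lungs of P29 stood where those of P14 had been (4.35, 4.54 and 4.39), and the difference was -1.61 ± 0.11 or 3.06-fold (adjusted p = 7.51e-07). Txk, a Tec-family kinase of T cells, read 5.69 and 5.85 against 4.44, 4.32 and 4.50, lower by 1.36 ± 0.09 log2 units. In the P14 lungs Txk lay between 4.34 and 4.69, near the dim end of the array. Lat, the scaffold on which the receptor's signal is assembled, was 2.64-fold lower at P29 (-1.40 ± 0.18, adjusted p = 8.05e-05). Themis, needed for the development of T cells, was 1.61-fold lower, and Zap70, the kinase that binds the phosphorylated CD3 chains, 1.52-fold lower.

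The exception of this role was Cd247, the zeta chain. It read 6.72 and 6.86 in P29 room air and 6.34, 7.04 and 6.67 in P29 hyperoxia, so the groups overlapped, with a difference of -0.10 ± 0.16 (adjusted p = 0.582). At P14 it read 5.79 and 5.66 in room air and 5.72, 5.83 and 5.83 in hyperoxia. Its other 3 probe sets stayed under 5 on every array, and gave P29 differences of -0.08, -0.25 and -0.53.

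Of the coreceptors, adhesion molecules and costimulatory receptors, 9 of 11 were lower at P29, with a median of -0.74. Cd2, an adhesion receptor of T and natural killer cells, read 7.10 and 7.31 in P29 room air and 4.72, 4.63 and 4.48 in P29 hyperoxia. Its P14 values were 5.50 and 5.37 in room air and 4.82, 4.64 and 4.69 in hyperoxia. The P29 hyperoxia lungs thus stayed at the level of the P14 hyperoxia lungs, and the P29 difference was -2.60 ± 0.10, or 6.04-fold (adjusted p = 3.61e-08). Cd5, which restrains receptor signalling, showed the same arrangement, with 6.54 and 6.41 against 4.58, 4.38 and 4.75 at P29 and 5.08 and 5.26 against 4.51, 4.51 and 4.61 at P14. Its P29 difference was -1.91 ± 0.11, or 3.75-fold (adjusted p = 3.74e-07).

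Cd28, the costimulatory receptor for B7 ligands, read 6.10 and 6.20 in P29 room air and 4.25, 4.71 and 4.34 in P29 hyperoxia, 3.29-fold lower (-1.72 ± 0.13, adjusted p = 1.54e-06). Cd8b1, the beta chain of the CD8 coreceptor, read 5.70 and 5.30 against 4.12, 4.32 and 4.21, 2.43-fold lower (-1.28 ± 0.11, adjusted p = 4.69e-06). For both genes the P29 hyperoxia arrays lay apart from and below the room-air arrays of that age. Cd27, a costimulatory receptor of the tumour necrosis factor receptor family, was 2.15-fold lower, Cd6 1.67-fold, Cd4, the coreceptor for class II molecules, 1.57-fold, Cd8a 1.45-fold and the inhibitory receptor Ctla4 1.36-fold. The call for Ctla4 (-0.45 ± 0.13, adjusted p = 0.0145) was lost without P29 room-air replicate 1 and without replicate 2. Cd7 did not pass the test (0.00 ± 0.10), nor did Icos, a costimulatory receptor of activated T cells (-0.12 ± 0.10, adjusted p = 0.337). With probe sets averaged, Icos passed at P29 with -0.42 (adjusted p = 0.00422).

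**Figure D2:**
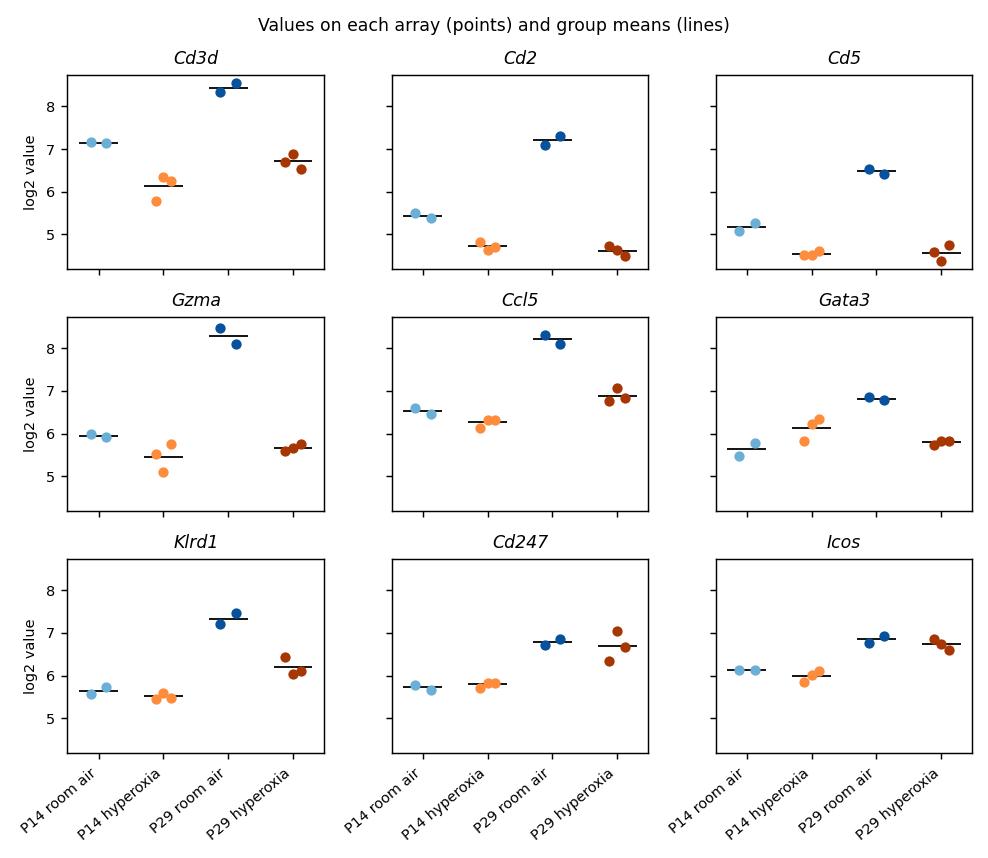
Log2 values of 9 members on each array (points, coloured by group) with group means (lines); x axis, age and exposure; y axis, log2 value on 1 scale for all panels. Cd2 read 7.10 and 7.31 in P29 room air and 4.48 to 4.72 in P29 hyperoxia, whereas the groups of Cd247 overlapped at P29 (6.72 and 6.86 against 6.34 to 7.04).

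Both cytokine receptor genes passed as lower at P29, Il7r just inside the threshold. Il2rb, the beta chain shared by the interleukin 2 and interleukin 15 receptors, read 6.63 and 6.69 in room air and 5.76, 5.65 and 5.89 in hyperoxia, 1.85-fold lower (-0.89 ± 0.11, adjusted p = 6.12e-05). Il7r, the interleukin 7 receptor chain, read 7.68 and 7.76 against 7.29, 7.63 and 7.41, so the groups came close without overlapping. Its difference was -0.28 ± 0.10 (adjusted p = 0.0389), and the call was lost without either P29 room-air array, and without P29 hyperoxia replicate 1 or 3 or P14 hyperoxia replicate 1. It was also lost with other variance options (trend and robust), with the P29 arrays fitted alone, with a replicate block, with the actin or the Y-linked term, and with the female hyperoxia array alone.

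Of the 6 transcription factors listed, 3 were measured above the filter. Eomes, a T-box factor of natural killer and CD8 T cells, read 5.69 and 5.61 in P29 room air and 4.91, 4.97 and 5.01 in P29 hyperoxia (-0.69 ± 0.09, adjusted p = 7.23e-05). Gata3, which T cell development and type 2 helper cells need and which cells outside the lymphoid lineage also express, read 6.85 and 6.78 against 5.73, 5.82 and 5.83 at P29. The groups of Gata3 were far apart at P29, with a 2.04-fold lower value (-1.03 ± 0.14, adjusted p = 0.000102). Ikzf3, a lymphoid zinc finger factor, overlapped between groups, with 6.02 and 6.43 against 5.85, 6.05 and 5.98 (-0.26 ± 0.15, adjusted p = 0.143). Over the alternative fits its P29 difference ran from -0.88 to -0.06. Tbx21, the factor of type 1 helper cells, and Foxp3, that of regulatory T cells, fell below the filter, with highest values of 4.79 and 5.15. Fitted without the filter, Foxp3 differed by -0.75 at P29 and Tbx21 by -0.30.

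All 3 measured natural killer receptors were lower at P29, with a median of -0.97. Klrd1 (CD94), a partner chain of inhibitory and activating lectin-like receptors, read 7.20 and 7.47 in room air and 6.44, 6.04 and 6.10 in hyperoxia, 2.21-fold lower (-1.14 ± 0.13, adjusted p = 2.55e-05). Ncr1 (NKp46), an activating receptor of natural killer cells, read 6.09 and 6.26 against 5.02, 5.22 and 5.38, 1.95-fold lower (-0.97 ± 0.13, adjusted p = 7.67e-05). Klrk1 (NKG2D), an activating receptor that T cells also carry, read 6.49 and 6.37 against 5.71, 5.35 and 5.74, 1.78-fold lower (adjusted p = 0.00195). In each of these receptors the exposures were separated at P29, but Klrk1 (-0.76, adjusted p = 0.195) and Ncr1 (-0.79, adjusted p = 0.0709) lost the call in a fit that carried the actin measure of each array. Klre1 stayed at or below 4.63 on every array.

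Among the cytotoxic and secreted effectors, 4 of 6 were lower at P29. Gzma, the serine protease granzyme A, had the largest P29 fall of the members. It read 8.47 and 8.10 in P29 room air and 5.60, 5.66 and 5.75 in P29 hyperoxia, after 5.99 and 5.91 in P14 room air and 5.52, 5.09 and 5.76 in P14 hyperoxia. The P29 hyperoxia values lay below the P14 room-air values, and the P29 difference was -2.62 ± 0.17, or 6.14-fold (adjusted p = 6.36e-07). Ccl5, a chemokine that cytotoxic T and natural killer cells release, read 8.32 and 8.11 against 6.77, 7.07 and 6.83, 2.50-fold lower (-1.32 ± 0.11, adjusted p = 3.69e-06). Nkg7, a membrane protein of cytotoxic granules, read 6.49 and 6.42 against 5.32, 5.46 and 5.37, 2.10-fold lower (adjusted p = 6.91e-05). Gzmb, granzyme B, moved less than Gzma, with 6.56 and 6.31 against 5.97, 5.57 and 5.74 (-0.67 ± 0.14, adjusted p = 0.00186).

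Xcl1, a chemokine for cross-presenting dendritic cells, did not pass at P29 (-0.04 ± 0.14), and Ifng stayed at or below 3.78 on every array. For Prf1, perforin, the result depended on the probe set. The brighter one read 5.91 and 5.93 in P29 room air and 5.77, 6.18 and 5.93 in P29 hyperoxia (0.04 ± 0.15, adjusted p = 0.831). The other, which was dimmer, read 5.79 and 5.86 against 4.99, 4.99 and 5.09, a difference of -0.80. With the probe sets of a gene averaged, Prf1 was lower at P29 by 0.38 log2 units (adjusted p = 0.00318).

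**Figure D3:**
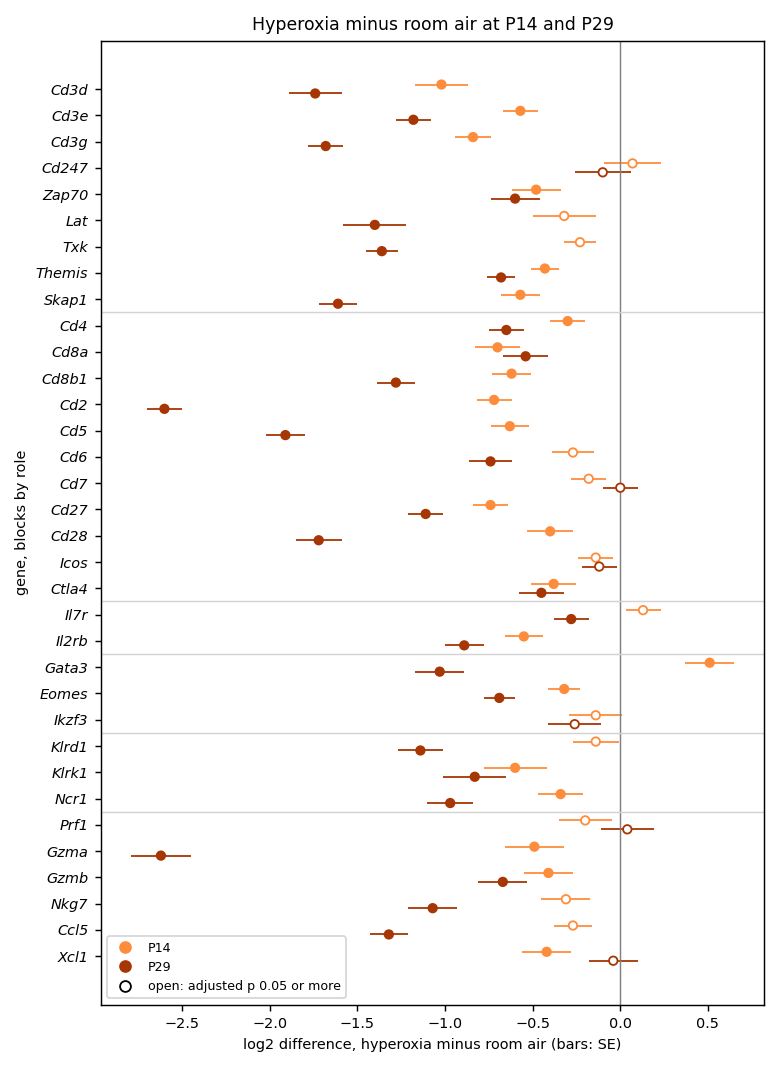
Log2 difference of hyperoxia minus room air for each member (y axis, blocks by role) at P14 and at P29 (points, bars are SE; open points have an adjusted p of 0.05 or more; n = 2 room-air and 3 hyperoxia arrays at each age). Most P29 points lie left of the P14 points, from -2.62 for Gzma to 0.04 for Prf1, and Gata3 is right of 0 at P14 (0.51) and left of it at P29 (-1.03).

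At P14, 21 of 34 members were lower in hyperoxia, 1 was higher and 12 did not pass, where 22.8% of all genes were lower and 32.3% higher. Of the 21, Cd8a and Xcl1 had a larger difference at P14 than at P29 on the probe sets used, and the others a smaller one. Among genes in the members' range of mean values, 26.8% were lower. The median difference was -0.39, against 0.04 over all genes, and in 25 members every hyperoxia array lay below both room-air arrays, as in 31.7% of all genes. Without the filter, 21 of 39 members were lower, with a median of -0.32. Lower at both ages were 20 members and 14.2% of all genes. Scaling to the 75th percentile gave 25 lower members, with 31.9% of all genes lower and 25.8% higher. The P14 count was lower in other fits. In a fit that carried the 3′ minus 5′ actin difference of each array as a term, 3 members were lower at P14 (Cd3d, Cd3g and Cd27) with a median of -0.47, as were 3.86% of all genes. The same fit called 19 members and 8.52% of all genes lower at P29, with a member median of -0.84. Zap70, Cd4, Cd8a, Ctla4, Il7r, Il2rb, Klrk1, Ncr1, Gzmb and Nkg7 lost their P29 call in it, and another member, not called without the term, gained one. Without P14 room-air replicate 1, 12 members were lower at P14, and Zap70, Cd4, Cd28, Eomes, Klrk1, Ncr1, Gzma, Gzmb and Xcl1 lost the call. Without any other single P14 array, 16 to 20 members were lower. Cd4, Cd28, Ctla4, Ncr1, Gzma, Gzmb and Xcl1 each lost the call without at least 1 of those other P14 arrays.

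The largest P14 fall was that of Cd3d, at 7.16 and 7.13 in room air and 5.79, 6.34 and 6.26 in hyperoxia, 2.02-fold lower (-1.02 ± 0.15, adjusted p = 0.000276). Cd3g was 1.79-fold lower (-0.84 ± 0.10, adjusted p = 7.48e-05). Cd27 read 5.52 and 5.47 in room air and 4.71, 4.72 and 4.83 in hyperoxia, 1.67-fold lower (-0.74 ± 0.10, adjusted p = 0.000113). In all 3 genes the hyperoxia arrays were separated from the room-air arrays. Cd2 was lower by 0.72 ± 0.10 log2 units, Cd8a by 0.70 ± 0.13 and Cd5 by 0.63 ± 0.11. Cd8a alone in its role fell at least as far at P14 as at P29 with a call at both ages. This held for the probe set used, but the difference between the ages did not pass (0.16 ± 0.19, adjusted p = 0.598). Its other probe sets, all dimmer, fell further at P29. They gave -0.77 at P29 against -0.25 at P14, -0.70 against -0.33, -0.69 against -0.29 and -0.44 against -0.40. By role, 6 of 9 receptor and signalling genes, 8 of 11 coreceptors and costimulatory receptors, 1 of 2 cytokine receptors, 2 of 3 natural killer receptors and 3 of 6 effectors were lower at P14. Of the 3 transcription factors, 1 was lower (Eomes, -0.32 ± 0.09) and 1 higher (Gata3).

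Gata3 was the member that rose at P14. It read 5.48 and 5.78 in room air and 5.83, 6.23 and 6.34 in hyperoxia, so the highest room-air value lay just below the lowest hyperoxia value. The difference was 0.51 ± 0.14 (adjusted p = 0.01). It lost the call without P14 room-air replicate 1, and turned to -0.11 in the fit with the actin term. Il7r was at 6.20 and 6.20 in room air and at 6.34, 6.22 and 6.42 in hyperoxia, without a call (0.13 ± 0.10, adjusted p = 0.3).

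The effect of hyperoxia differed between the ages for 16 of 34 members, each with a lower effect at P29 (the P29 difference minus the P14 difference, limma), and for 0 in the other direction. Over all genes 11.6% had a lower effect at P29 and 11.0% a higher one. Txk, Cd28, Skap1 and Cd8b1 are among the 16. They passed the filter only with the P29 room-air arrays, which this test also uses. The median member difference of effects was -0.44, and 29 members had a lower P29 than P14 effect with or without a call. Gzma led with -2.12 ± 0.24 (adjusted p = 0.000148), followed by Cd2 with -1.88 ± 0.14 (adjusted p = 1.44e-05) and Gata3 with -1.53 ± 0.20 (adjusted p = 0.000343). Cd28 differed by -1.32 ± 0.18 and Cd5 by -1.28 ± 0.16. The sign turned with age for Gata3, but not in the fit with the actin term, where its P14 effect was -0.11. Its P14 rise also lost the call without P14 room-air replicate 1. Gzma, Cd2, Cd28 and Cd5 were lower at both ages, though each lost its P14 call with the actin term. Calls for Cd3d, Lat, Ncr1 and Nkg7 were lost without at least 1 of the arrays, Cd3d without any of P14 room-air replicates 1 and 2, P14 hyperoxia replicates 2 and 3, P29 room-air replicate 2 and P29 hyperoxia replicates 1 and 3. Lat lost it without replicate 2 of either room-air group, and Nkg7 without replicate 1 of either. Ncr1 lost it without P14 room-air replicate 2, P14 hyperoxia replicate 1 or 2, P29 room-air replicate 2 or P29 hyperoxia replicate 1.

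In room air, the members were higher at P29 than at P14. The test called 25 of 34 higher and 0 lower, against 22.2% and 19.1% of all genes, and the median difference was 0.79, against 0.01. A rise of 2-fold or more occurred in 15 members and 4.86% of all genes. Without the filter, 29 of 39 were higher. Both P29 room-air lungs read as female and both P14 lungs as male. With a term for the Y-linked level of each array, 20 members were higher, against 14.4% of all genes. Cd4, Cd8b1, Cd6, Cd27 and Eomes were no longer called. Cd4 also lost its call without P14 replicate 2 or P29 replicate 1, as did Eomes.

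Gzma rose 5.06-fold with age in room air (2.34 ± 0.18, adjusted p = 2.36e-06), Cd3g 4.07-fold (2.03 ± 0.11, adjusted p = 2.57e-07) and Cd2 3.42-fold (1.78 ± 0.11). Klrd1 rose 3.22-fold, Ccl5 3.20-fold, Cd28 3.26-fold and Il7r 2.88-fold. In each of these 7 genes both P29 room-air arrays lay above both P14 room-air arrays. Cd8a had no call, at 6.32 and 6.24 at P14 and 6.19 and 6.14 at P29 (-0.12 ± 0.14), and neither had Zap70 (0.13 ± 0.15), Il2rb (0.30 ± 0.12, adjusted p = 0.0749) or Gzmb (0.31 ± 0.15, adjusted p = 0.132). Prf1, Xcl1, Ikzf3, Cd7 and Ctla4 made up the rest of the members without a call, with differences from -0.14 for Xcl1 to 0.26 for Ctla4. For Cd8a the sign depended on the probe sets, since their mean was higher at P29 by 0.27, and for Prf1 by 0.26, both with a call.

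**Figure D4:**
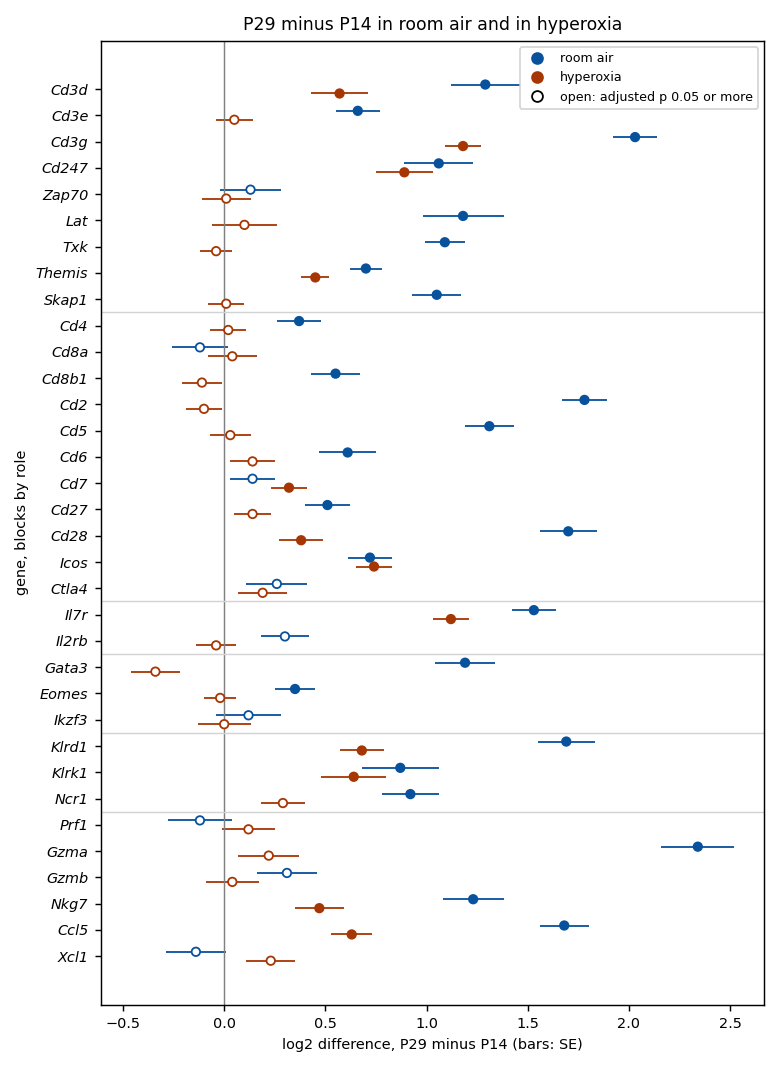
Log2 difference of P29 minus P14 for each member (y axis, blocks by role) in room air (2 arrays at each age) and in hyperoxia (3 arrays at each age) (points, bars are SE; open points have an adjusted p of 0.05 or more). Room-air points reach 2.34 for Gzma, where the hyperoxia point stands at 0.22, while the points of Icos lie together at 0.72 and 0.74.

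In hyperoxia, fewer members were higher at P29 than at P14. The count was 12 of 34 with 0 lower, against 15.4% of all genes higher and 11.7% lower, and the median was 0.14, against 0.01. The age comparison in room air and the hyperoxia comparison at P29 use the same P29 room-air arrays, so they are not separate evidence, and the test of the difference given above is the same quantity whether read by age or by exposure. The largest rises in hyperoxia were those of Cd3g (1.18 ± 0.09, 2.27-fold), Il7r (1.12 ± 0.09, 2.17-fold) and Cd247 (0.89 ± 0.14, 1.85-fold). Cd247 and Il7r had also risen in room air, by 1.06 ± 0.17 and 1.53 ± 0.11. Icos rose by 0.74 ± 0.09 in hyperoxia and 0.72 ± 0.11 in room air on the probe set used. Its other probe sets rose less, by 0.29 ± 0.12 and 0.43 ± 0.15 in hyperoxia and by 0.12 ± 0.15 and 0.45 ± 0.18 in room air. Cd2, Cd5, Txk, Skap1, Cd3e, Lat and Gzma were called higher with age in room air and had hyperoxia differences between -0.10 and 0.22 without a call. The calls for Cd7, Cd28 and Nkg7 in hyperoxia were lost without P29 replicate 2, and those for Cd7 and Cd28 also without P14 replicate 1, and for Cd28 without P14 replicate 2. The P14 hyperoxia arrays read as male and those of P29 as mixed. With the Y-linked term 8 members were higher with age in hyperoxia, against 10.6% of all genes, and Cd3d, Cd7, Cd28 and Nkg7 lost the call. With the female P29 hyperoxia array alone the median was 0.25, against 0.02 over all genes, and Klrk1 and Nkg7 lost the call. In 23 of 34 members the mean of the P29 hyperoxia arrays was below that of the P14 room-air arrays, against 46.4% of all genes.

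The P29 result was as large in the array of matching sex. The female P29 hyperoxia lung (replicate 2) was taken as the sole hyperoxia array of that age, assumed to vary like the other groups. The median member difference from the 2 female room-air lungs was then -0.99, against 0.07 over all genes. In that fit the median difference of effects between the ages was -0.47, against 0.01 over all genes. Cd3d, Lat, Cd8b1, Ncr1 and Nkg7 lost the call for it. At P14 the 5 arrays read as the same sex.

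Other genes of T cells, from a separate list without members, were lower as well. Like the members, this list was chosen with earlier results of these data known, so it is not independent support. Of 23 measured, 17 were lower and 0 higher at P29 (median -0.48), and 11 were lower and 1 higher at P14. Ccr7, the receptor that guides T cells to lymph nodes, was lower by 1.60 ± 0.14 log2 units at P29, Lef1, a Wnt-responsive factor, by 1.04 ± 0.08, and Cd96, an adhesion receptor, by 0.94 ± 0.11. Summed over 28 genes of this list, the log2 level was 12.30 to 12.44 in P29 room air and 11.56 to 11.75 in P29 hyperoxia. The brightest gene of the list, S1pr1, weighs most in this sum. It read 10.65 and 10.80 in P29 room air and 9.20, 9.68 and 9.55 in P29 hyperoxia. In room air 15 of the 23 genes were higher with age and 1 lower, but S1pr1 (0.27 ± 0.17) and Lef1 (-0.12 ± 0.09) were not called. Which cells gave the S1pr1 and Lef1 signals was not tested, so the sum cannot be read as a level of T cells. At P14, 3 of 11 other natural killer and cytotoxic genes were lower and 0 higher. At P29, 7 of the 11 were lower and 0 higher (median -0.38), among them the adaptors Tyrobp (-1.15 ± 0.09) and Fcer1g (-0.83 ± 0.10), which myeloid cells also express, and the receptor Klrg1 (-0.94 ± 0.15). Innate and type 17 lymphocyte genes were thinly measured, with 4 genes, of which 3 were lower and 1 higher (Maf, 1.18 ± 0.13) at P29.

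Cytokines and chemokines that maintain or attract T and natural killer cells did not move in one direction. Of 11, 6 were lower and 3 higher at P29, and 1 was lower and 4 higher at P14. Cxcl12, which attracts lymphocytes through Cxcr4, was lower at P29 by 1.51 ± 0.13 and Il18, which activates natural killer cells, by 1.24 ± 0.13. Tslp, an epithelial cytokine, was higher by 1.77 at P14 and by 0.90 ± 0.09 at P29. Genes of the thymus and immature T cells, which would mark thymus in the dissected tissue, showed 2 lower and 1 higher of 6 at P29. At P14, 2 were lower and 0 higher. Rag1, which rearranges the antigen receptor, stayed at or below 3.52 on every array. Rag2, of the same list, passed the filter and was lower at P29 (-0.50 ± 0.11, adjusted p = 0.00249). It was higher with age in room air (0.35 ± 0.12, adjusted p = 0.0362).

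Of the other leukocyte lists, the pan-leukocyte, B cell and neutrophil genes were lower with the members, whereas the macrophage, dendritic cell and mast cell lists each held higher genes. Of 12 pan-leukocyte genes, 11 were lower and 0 higher at P29 (median -0.79), led by Rac2 (-1.95 ± 0.08), Cd37 and Coro1a, and 8 were lower and 1 higher at P14. Their summed log2 level was 13.70 to 13.79 in P29 room air and 13.01 to 13.08 in P29 hyperoxia. Of 8 B cell genes, 7 were lower at P29 (median -1.29), and Ms4a1, which encodes CD20, was lower by 2.27 ± 0.15, with summed levels of 10.09 to 10.35 and 9.05 to 9.14. Of 7 neutrophil genes, 6 were lower (median -1.78), with S100a9 lower by 3.40 ± 0.13 and summed levels of 12.42 to 13.04 and 9.75 to 9.84. Macrophage and monocyte genes were mixed, with 3 lower and 1 higher of 9 (median 0.07) and summed levels of 12.71 to 12.77 and 12.73 to 12.80. Of 6 dendritic cell genes, 0 were lower and 2 higher at P29 (median 0.03), with Itgae higher by 1.62 ± 0.21 and summed levels of 9.83 to 10.02 in room air and 10.16 to 10.37 in hyperoxia. Of 6 mast cell genes, 1 was lower and 4 higher at P29, and 1 lower and 5 higher at P14. The protease Cma1 was higher at P29 by 2.36 ± 0.31, and the receptor Kit, which other lung cells also express, was lower by 3.36 ± 0.17. The summed mast cell level was 10.81 to 10.98 in P29 room air and 9.55 to 9.67 in P29 hyperoxia. Kit was the only gene of this list called lower and the list median was 0.55, so the sum went against most of its genes. The members summed to 12.25 on both P29 room-air arrays and to 11.24 to 11.36 in P29 hyperoxia. The part of a general change in leukocytes in the member differences was not tested.

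**Figure D5:**
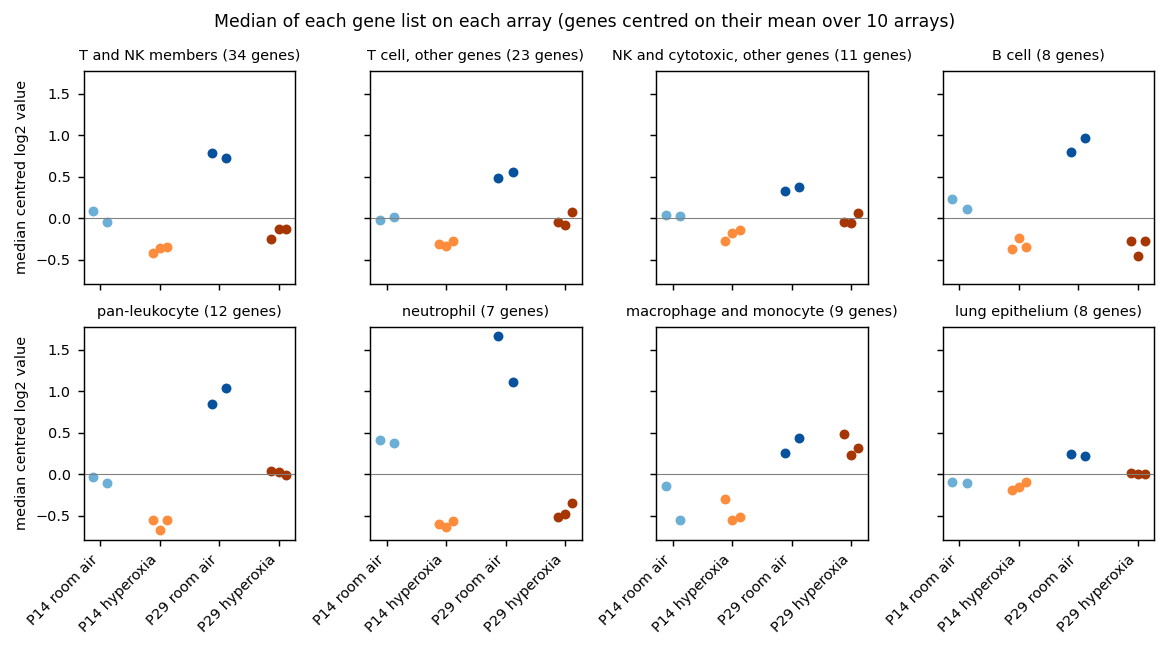
Median over the genes of 8 lists on each array (points by group; y axis, log2 value minus each gene's mean over the 10 arrays; the number of genes is given above each panel). The member list falls from 0.78 and 0.73 in P29 room air to between -0.25 and -0.13 in P29 hyperoxia, the B cell and neutrophil lists also fall, and the macrophage list is at 0.26 and 0.44 against 0.23 to 0.48.

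For 13 of the 34 members the array carried more than 1 probe set, with 24 further probe sets in all. Of these, 13 reached a log2 value of 5 on at least 1 array, and 11 of the 13 had the same sign as the probe set used at P29, as did 11 at P14. The probe sets of Icos disagreed in size, with -0.12 for the one used and -0.61 and -0.55 for the others at P29. For Il7r the values were -0.28 and -0.67, and for Ikzf3 -0.26 and -0.54. The uncalled members Icos, Ikzf3 and Prf1 thus each had a second probe set with a larger P29 difference. Called members also had other probe sets with smaller ones. At P29, those of Zap70 gave -0.38 and -0.05 against -0.60 for the one used. The values were -0.97 against -1.72 for Cd28, -0.56 against -0.89 for Il2rb and -0.49 against -0.65 for Cd4. A dim probe set of Themis gave 0.07 against -0.68. Those of Cd8a that reached 5 went the other way, with -0.77 and -0.69 against -0.54.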

How the data were processed

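The log2 values were used as the authors deposited them, and Partek 6.4 and GCRMA are the tools named per the submitters' processing notes. The sources used here do not give their settings. GCRMA is a method that adjusts background by probe sequence, which bears most on dim values. Array precision is limited by the number of arrays, 2 or 3 in a group. Of 45101 probe sets, 34958 had 1 gene symbol, 932 several and 9211 none, and control probe sets were left out. Each gene was read from its brightest single-symbol probe set (mean over 10 arrays) and kept if 2 or more arrays reached a log2 value of 5.

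A model with 4 group means was fitted to 14988 genes on 10 arrays by lmFit and eBayes of limma (version 3.58.1, under R 4.3.3; 6 residual and 5.09 prior degrees of freedom). P-values were adjusted by Benjamini and Hochberg over all 14988 genes for each contrast, at a threshold of 0.05. Fold sizes are 2 to the power of the log2 difference. The fit was tested on simulated data. Alternatives were other filters, scalings, probe set rules and variance options, terms for the actin difference, the Y-linked level and the replicate number, and leaving out each array.

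Per-array values are given for the 4 members of smallest P29 p in each role, members against the general direction and the 5 largest differences between ages; other members are named with their effects, and Cd3d, Cd27, Cd247 and the second probe sets with their array values after these were seen. The members and all lists were chosen with earlier results of these data known. The replicate numbers do not pair arrays, since pups were pooled and randomised and same-numbered arrays deviated from their group means with correlations of -0.10 to 0.20.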

Additional observations from a re-analysis of the deposited data

Results flagged for a closer look

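The effect of hyperoxia differed between P14 and P29 by the limma test of the difference itself for 16 members, and each had a lower effect at P29. In log2 units (P29 effect minus P14 effect) the receptor chains differed by -0.72 for Cd3d, -0.61 for Cd3e and -0.85 for Cd3g. The signalling genes differed by -1.08 for Lat, -1.13 for Txk and -1.04 for Skap1. Among the surface receptors the difference was -0.66 for Cd8b1, -1.88 for Cd2, -1.28 for Cd5 and -1.32 for Cd28. Gata3, whose effect changed sign except in the fit with the actin term, differed by -1.53. The natural killer receptors gave -1.0 for Klrd1 and -0.63 for Ncr1, and the effectors -2.12 for Gzma, -0.76 for Nkg7 and -1.05 for Ccl5. For Txk, Cd28, Skap1 and Cd8b1 this test is not independent of the filter, which needed their P29 room-air values.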

How the results depend on the processing

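Of 103 member differences that passed the test over the 5 comparisons, 59 kept the call under every alternative run and 44 lost it under at least 1. The count of members lower at P14 was 21; it was 3 with the actin term and 12 to 22 when single arrays were left out. The count lower at P29 was 28, and 26 to 28 without single arrays. The count with a lower effect at P29 was 16 (13 to 18), that higher with age in room air 25 (23 to 27), and that higher with age in hyperoxia 12 (9 to 13). With the replicate block the counts were 19 lower at P14, 28 lower at P29, 15 with a lower effect at P29, and 26 and 12 higher with age in room air and in hyperoxia; 3 of the 10 arrays were closest to an array of their own number. Quantile normalization gave 14 lower members at P14 and 27 at P29, where 24.8% and 27.6% of all genes were lower. The signs that turned with a call on either side were Gata3 at P14 (-0.11 with the actin term), and with probe sets averaged Prf1 at P29 (-0.38) and, with age in room air, Cd8a (0.27) and Prf1 (0.26). The cause was not tested. The dim members are limited by the floor of the arrays, since the 10th percentile of all probe sets was 3.71 to 3.75 under hyperoxia and 3.79 to 3.83 in room air.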
